A study of Homo sapiens with 8 samples.

Results

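Integrins are receptors built from 1 alpha and 1 beta subunit that join the cytoskeleton to the extracellular matrix, and laminins and fibronectin are the large matrix glycoproteins that many of them bind. Laminins are trimers of an alpha, a beta and a gamma chain and form the sheet of the basement membrane, in which nidogens link them to type IV collagen. Fibronectin, made from FN1, is laid down as fibrils through integrins such as the pairing of ITGA5 with ITGB1, and both kinds of matrix are known for their part in gastrulation and in the attachment of pluripotent cells to their dish. The integrin, laminin and fibronectin genes were taken by symbol: ITGA and ITGB followed by the subunit number or letter, LAMA, LAMB and LAMC followed by a number, and FN1, VTN, NID1 and NID2. They came to 39 of the 20195 named genes in the combined transcript assembly, or 230 of its 96614 transcripts. There were 16 integrin alpha subunits, 8 beta subunits, 11 laminin chains and 4 others (FN1, vitronectin and both nidogens). Another 10 transcripts with such a symbol lay only inside an intron or on the opposite strand and were left out.

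Long reads (PacBio Sequel II) were made from polyadenylated RNA of the H1 line of human embryonic stem cells, in 4 groups of 2 repeats. Undifferentiated cells (hPSC) grew in mTeSR1 on Matrigel, a mouse basement membrane extract that itself holds laminin and nidogen protein. The other groups came from these cultures after a change of medium and were collected after 5 days. The ectoderm group was kept in DMEM/F12 with KOSR, MEM non-essential amino acids and b-mercaptoethanol, and with A83-01, PNU-74654 and Dorsomorphin at 2 µM each. The endoderm group had RPMI with GlutaMax, non-essential amino acids, b-mercaptoethanol and FBS, to which WNT3A and 100 ng/ml Activin A were added. In the mesoderm group DMEM/F12 with GlutaMax, non-essential amino acids, b-mercaptoethanol and FBS carried VEGF and BMP4 at 100 ng/ml each and bFGF at 10 ng/ml, with 100 ng/ml Activin A present for 24 hours at the start. All groups are 1 cell line, and nothing says that the repeats were separate cultures, so p-values measure only the spread between these samples, which may be technical. The 3 comparisons of a layer with hPSC share the same hPSC libraries.

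Library totals ran from 503840 to 1180888 reads. Integrin, laminin and fibronectin genes took 0.109% and 0.0954% of the reads in hPSC, 1.39% and 1.37% in mesoderm, 0.395% and 0.373% in endoderm and 0.244% and 0.273% in ectoderm. FN1 alone held 80.1% and 80.0% of these reads in mesoderm. Without FN1 the share was 0.277% and 0.274% there, 0.300% and 0.293% in endoderm and 0.237% and 0.266% in ectoderm. In hPSC the share without FN1 was 0.0996% and 0.0836%. The labels were checked against marker lists. Pluripotency markers summed to 4431 and 4162 CPM in the hPSC libraries. Their sum was 395 and 407 CPM in mesoderm, 2111 and 1800 CPM in endoderm, and 1521 and 1944 CPM in ectoderm. Of the 8 markers tested, 7 were called lower than hPSC in mesoderm, 4 in endoderm and 5 in ectoderm. SOX1, of the ectoderm list, was not found among the named genes. The 4 ectoderm genes PAX6, SIX3, LHX5 and DLK1 had 79 to 468 reads in each ectoderm library and none in hPSC, and CER1 had 974 and 1181 reads in endoderm and none elsewhere. The lists also crossed the labels, with 2 of 6 tested ectoderm markers higher in endoderm than in hPSC. OTX2, of the ectoderm list, had 241 and 238 reads in endoderm against 181 and 130 in ectoderm. Of the tested mesoderm markers, 4 of 5 were higher in endoderm than in hPSC. APOA1, a marker of visceral endoderm, had 107 and 107 reads in endoderm and 0 to 1 elsewhere. The other 3 genes of its list of 4 did not go with it: TTR had no reads in endoderm, and AFP and APOB were not found among the named genes. HAND1 had 263 and 274 reads in mesoderm, where MIXL1 and FOXF1 were at 0 and TBXT had 1 and 0. In the mesoderm libraries 9 of 9 tested amnion and trophoblast markers were higher than in hPSC, with a summed level of 5784 and 6230 CPM against 28.5 to 82.0 CPM in all other libraries, led by GABRP with 2269 and 2355 reads. Mesenchyme markers summed to 5581 and 6230 CPM there against 125 to 377 CPM elsewhere, led by COL1A1. Of the endothelium and blood list 2 of 5 genes were found, and CDH5 had 5 and 3 reads in mesoderm. The list summed to 35.8 and 17.9 CPM in mesoderm, 44.0 and 52.7 CPM in ectoderm and 25.0 and 21.4 CPM in hPSC. In endoderm it summed to 17.1 and 11.9 CPM. Its 1 tested gene was not called in mesoderm against hPSC. Whether these cell types carried the mesoderm or endoderm values given here was not tested. Nor was it tested whether pluripotent cells carried part of the ectoderm or endoderm values. In bulk RNA fewer cells of a type and less RNA per cell cannot be told apart.

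The sequences that tell FN1 transcripts apart are shown first, because the results on FN1 turn on them. Fibronectin messenger RNA can include or skip the extra domains B and A (EDB and EDA), each a whole fibronectin type III repeat encoded by its own exon, and it uses a variable region (V) in part or in full. The EDB exon lies at chr2:215392931-215393203 on the minus strand of GRCh38, is 273 nt long and encodes 91 codons. The EDA exon lies at chr2:215380811-215381080, also on the minus strand, and is 270 nt long with 90 codons. Both lengths are multiples of 3, so skipping either leaves the reading frame whole. In the sequences below, from GENCODE 29 and written 5′ to 3′ on the transcript strand, capitals mark the exon and lower case the 10 bases on each side.
FN1 EDB exon: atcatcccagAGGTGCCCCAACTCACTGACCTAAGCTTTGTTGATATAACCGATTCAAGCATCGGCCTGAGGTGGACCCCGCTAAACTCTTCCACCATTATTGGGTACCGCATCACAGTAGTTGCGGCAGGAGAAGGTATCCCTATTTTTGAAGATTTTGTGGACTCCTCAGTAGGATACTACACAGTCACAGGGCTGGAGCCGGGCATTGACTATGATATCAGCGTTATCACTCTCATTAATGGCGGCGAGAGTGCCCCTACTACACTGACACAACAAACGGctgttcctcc
FN1 EDA exon: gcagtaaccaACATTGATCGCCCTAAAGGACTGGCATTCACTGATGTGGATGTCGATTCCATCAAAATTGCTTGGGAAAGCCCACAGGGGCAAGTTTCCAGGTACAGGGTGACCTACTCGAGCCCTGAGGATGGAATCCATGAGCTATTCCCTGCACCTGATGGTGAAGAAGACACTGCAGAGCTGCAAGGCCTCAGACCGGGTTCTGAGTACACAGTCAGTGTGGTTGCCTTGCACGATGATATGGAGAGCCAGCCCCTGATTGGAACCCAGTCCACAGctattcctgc
The EDA exon holds the purine-rich run GAAGAAGA once, from base 156, a type of run known as a splicing enhancer. The same letters on the transcript strand were in 152 of 4830 internal coding exons of 250 to 300 nt (3.15%), and not in the EDB exon. The variable region lies at chr2:215372016-215372375 on the minus strand and spans 360 nt or 120 codons in segments of 75, 192 and 93 nt. Its forms are named by the codons kept: V120 has all segments, V89 the first and the middle one, V64 the middle one alone, and V0 none. The line below runs from the 10 bases before the region to the first 10 bases of its last segment, and the capitals mark the middle segment, which V120, V89 and V64 share.
FN1 variable region, V89 part: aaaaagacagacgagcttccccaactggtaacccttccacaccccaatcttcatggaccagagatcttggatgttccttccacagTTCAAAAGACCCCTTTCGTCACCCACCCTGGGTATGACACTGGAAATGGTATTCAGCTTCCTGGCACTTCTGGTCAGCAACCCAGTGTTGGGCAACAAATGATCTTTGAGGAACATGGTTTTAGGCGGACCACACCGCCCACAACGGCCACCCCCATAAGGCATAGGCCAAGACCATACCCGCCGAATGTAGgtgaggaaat

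Fibronectin had the most reads of the set in mesoderm, while ITGA5 had more reads than FN1 in hPSC, ectoderm and endoderm. Reads from FN1 numbered 49 and 66 in the hPSC libraries, 5902 and 5528 in mesoderm, 555 and 472 in endoderm and 80 and 64 in ectoderm. After scaling to the library total with TMM factors, which is called normalised CPM here, this was 114 ± 35.2 (SD, n = 2) in hPSC, 9932 ± 137 in mesoderm, 1167 ± 81.8 in endoderm and 52.7 ± 1.10 in ectoderm. All mesoderm libraries lay above all endoderm libraries, which lay above hPSC and ectoderm. FN1 was thus 87.3-fold higher in mesoderm than in hPSC (log2 fold change 6.45 ± 0.42 SE, adjusted p = 6.94e-08 by edgeR) and 10.3-fold higher in endoderm (log2 fold change 3.36 ± 0.37 SE, adjusted p = 1.26e-05). Mesoderm also exceeded endoderm (endoderm against mesoderm, log2 fold change -3.09 ± 0.35 SE, adjusted p = 9.12e-06). Values printed below with an adjusted p and no other name are log2 fold changes. FN1 fell in ectoderm (log2 fold change -1.10 ± 0.37 SE, adjusted p = 0.0221). That fall was lost when library totals were used in place of TMM factors (-0.66, adjusted p = 0.0603) and without hPSC repeat 2 (-0.70, adjusted p = 0.113) or either ectoderm repeat (-0.98, adjusted p = 0.104 and -0.91, adjusted p = 0.131).

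The bases before the FN1 start are given because FN1 had the largest rise of the set in mesoderm. RefSeq (GRCh38.p14) places the 250 bases upstream of the start at chr2:215436069-215436318 on the minus strand. Capitals mark a cyclic AMP response element (TGACGTCA), which begins 183 bases before the start, and a CCAAT box (CCAAT), 162 bases before it, with both strands searched.
FN1 upstream: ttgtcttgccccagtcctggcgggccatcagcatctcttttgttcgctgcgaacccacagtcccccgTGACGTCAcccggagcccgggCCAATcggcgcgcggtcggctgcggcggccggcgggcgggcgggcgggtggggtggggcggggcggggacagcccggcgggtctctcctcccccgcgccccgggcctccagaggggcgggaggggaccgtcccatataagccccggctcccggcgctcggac
Promoters of 29 of the 39 genes were in the RefSeq table. TGACGTCA was in 1 of these 29, that of FN1, and in 1.77% of 27305 upstream windows of this length. CCAAT was in 7 of the 29 and in 33.0% of all windows. A match of letters describes the window and does not show that a factor binds there.

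**Figure D1:**
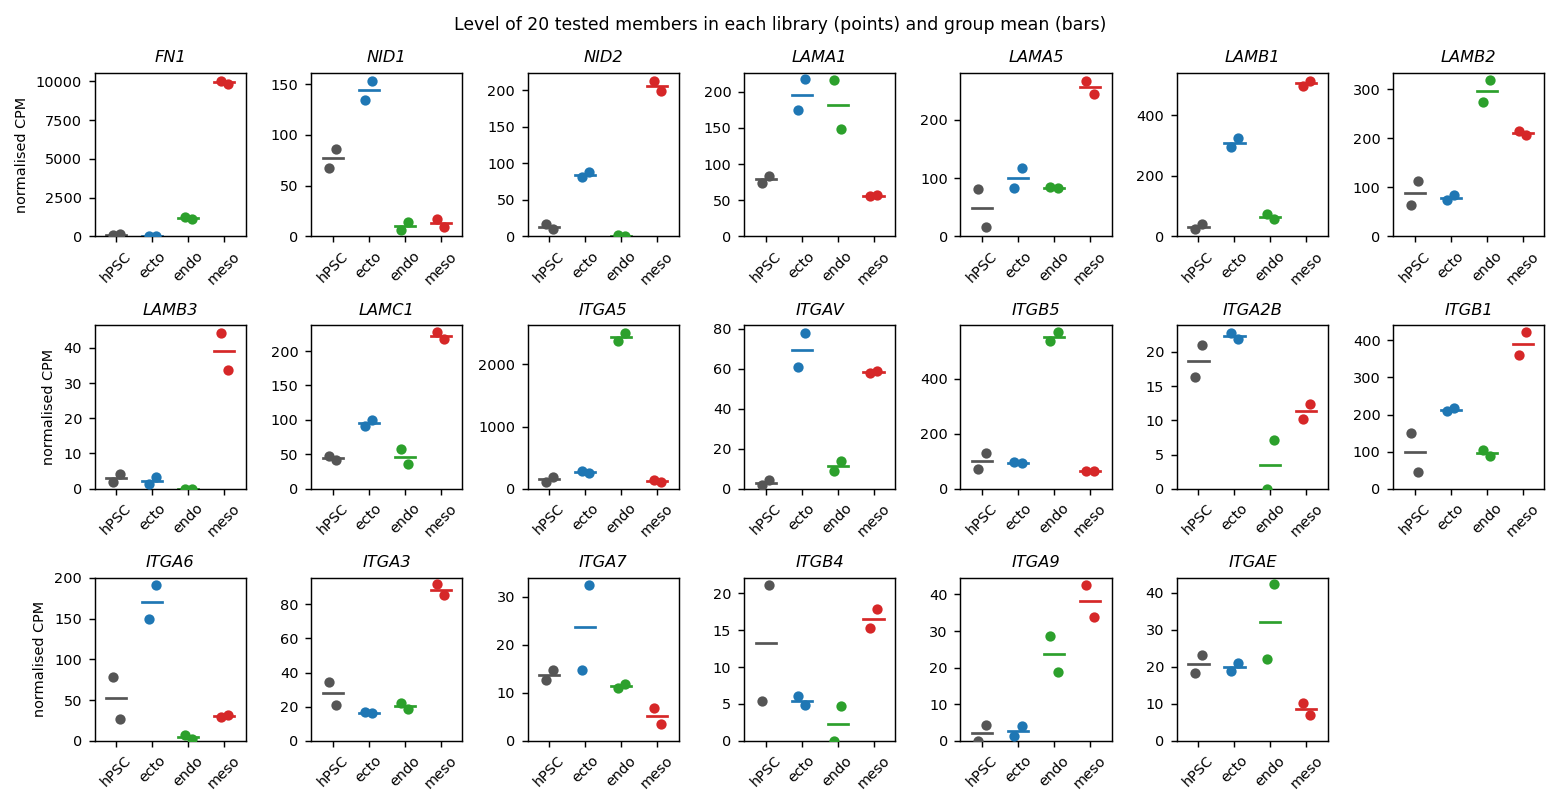
Normalised CPM (scaled with TMM factors, linear axes from 0, each gene with its own scale) of 20 genes that passed the filter on low counts. Points are the 2 libraries of a group and bars their mean. FN1 averages 9932 in mesoderm, ITGA5 and ITGB5 are highest in endoderm, ITGA6 and NID1 in ectoderm.

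The same FN1 form led in all groups. The form with EDB, EDA and V89 (ENST00000323926.10) made up 67.0% of FN1 reads in hPSC, 59.7% in mesoderm, 56.6% in endoderm and 61.1% in ectoderm. The same form with the whole variable region (ENST00000354785.11) followed with 13.9% in hPSC, 20.2% in mesoderm, 22.5% in endoderm and 25.0% in ectoderm. EDB was included in 98.0% and 78.8% of spanning reads in the hPSC libraries (48 of 49 and 52 of 66), in 83.3% and 85.7% in mesoderm (4906 of 5890 and 4727 of 5519), 88.6% and 85.5% in endoderm, and 88.8% and 93.8% in ectoderm. The hPSC repeats were the lowest and the highest of the 8 libraries, so the groups overlapped. Group means were 88.4% ± 13.6 (SD, n = 2) in hPSC, 84.5% ± 1.67 in mesoderm, 87.1% ± 2.18 in endoderm and 91.3% ± 3.54 in ectoderm, and an exact permutation test over the 105 ways to form 4 pairs of libraries gave p = 0.81. EDA was included in 95.2% ± 3.91 of reads in hPSC, 94.3% ± 0.0621 in mesoderm, 96.9% ± 1.05 in endoderm and 97.3% ± 1.55 in ectoderm (n = 2 each, exact permutation p = 0.533). The whole variable region was used in 19.1% ± 7.68 of reads in hPSC, 24.8% ± 0.621 in mesoderm, 26.6% ± 0.953 in endoderm and 28.4% ± 0.442 in ectoderm (exact permutation p = 0.019). With the 3 events adjusted together by Benjamini-Hochberg the p-values were 0.81, 0.8 and 0.0571, and the smallest p these partitions allow is 0.00952. Without hPSC repeat 1, where hPSC is 1 library of 66 FN1 reads and the other groups alone give the spread, all 3 events passed (adjusted exact permutation p = 0.0476 for EDB, 0.0476 for EDA and 0.0286 for the variable region). The hPSC and ectoderm libraries had 49 to 80 FN1 reads each, and their intervals are wide: 52 of 66 reads gives 67.0% to 87.9% by the exact binomial method, 4906 of 5890 gives 82.3% to 84.2%. These intervals cover counting error only.

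**Figure D2:**
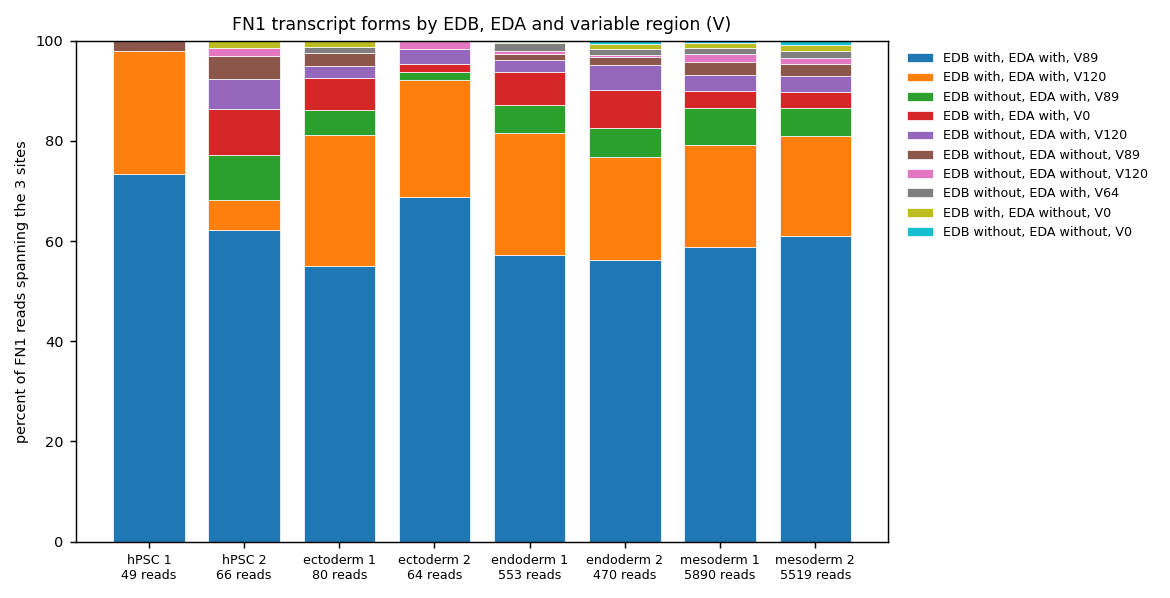
Percent of FN1 reads in each joint form of EDB, EDA and variable region (V120, V89, V64, V0), per library, with the spanning reads under each bar. The form with EDB, EDA and V89 takes 55.0% to 73.5% of the reads in every library.

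Reads were counted per whole assembled transcript, so that a read with an exon is a read assigned to a transcript that includes it, and the segments could be counted jointly. Reads with both extra domains were 97.96% and 77.3% of the spanning reads in hPSC, 82.4% and 84.4% in mesoderm, 88.3% and 84.5% in endoderm and 87.5% and 93.8% in ectoderm. Reads that lacked EDB but kept EDA made up 11.97% and 9.89% in mesoderm, while the reverse, EDB without EDA, was 0.883% and 1.25%. Reads lacking both domains were 4.74% and 4.46% of the mesoderm reads. V89 was the main form of the variable region, with 62.5% to 75.8% of reads in a library, and V64 was in 0% to 1.45%. These shares rest on which transcripts were assembled: 9 of the 11 FN1 transcripts were held by the assembly of 1 group only. In the separate assemblies of hPSC, ectoderm and endoderm, which hold 2 to 3 FN1 transcripts each, 100% of reads had EDB and EDA, while in that of mesoderm, with 10, EDB was in 82.6% and 85.3%. Skipping in the groups with fewer FN1 reads was therefore counted only through the combined assembly.

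**Figure D3:**
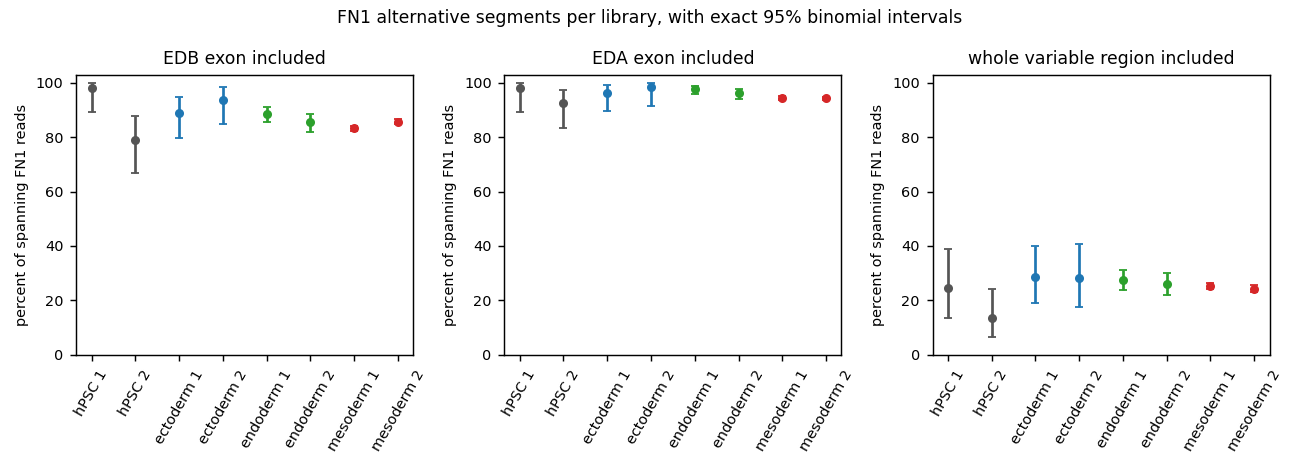
Percent of spanning FN1 reads that include the EDB exon, the EDA exon or the whole variable region, per library, with exact 95% binomial intervals (counting error only). The hPSC and ectoderm intervals are wide, and hPSC repeat 1 (98.0%) and repeat 2 (78.8%) lie at the ends of the EDB range.

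Of the 39 genes, 21 had enough reads for the test, and a gene passed the filter if the group where it is high was high enough, so counts over the 21 do not stand for all 39. In ectoderm 9 of the 21 rose and 1 fell, in a comparison in which 48.6% of all 10847 tested genes were called (23.8% higher, 24.8% lower). In endoderm 6 rose and 4 fell (27.1% of all genes called, 13.4% higher and 13.7% lower), and in mesoderm 12 rose and 1 fell (35.2%, 17% higher and 18.2% lower). Without ectoderm repeat 2 the number called in ectoderm was 6. The median log2 fold change of the 21 was 0.75 in ectoderm, 0.05 in endoderm and 1.31 in mesoderm, beside -0.01, -0.13 and 0.01 over all tested genes. Long genes as a whole had other medians. For a mean transcript of 4000 to 6000 nt these were 0.45 in ectoderm, -0.24 in endoderm and 0.24 in mesoderm. For 6000 nt or more they were 1.07, -0.25 and 0.50 in that order. LAMB3, with no reads in endoderm and 3 in hPSC, was given no fold there, and the endoderm median was 0.05 with it set to 0. A change of scaling moved these medians: with library totals alone the median over all genes was 0.39 in ectoderm, -0.46 in endoderm and 0.24 in mesoderm, and changes are reported relative to the TMM scale.

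**Figure D4:**
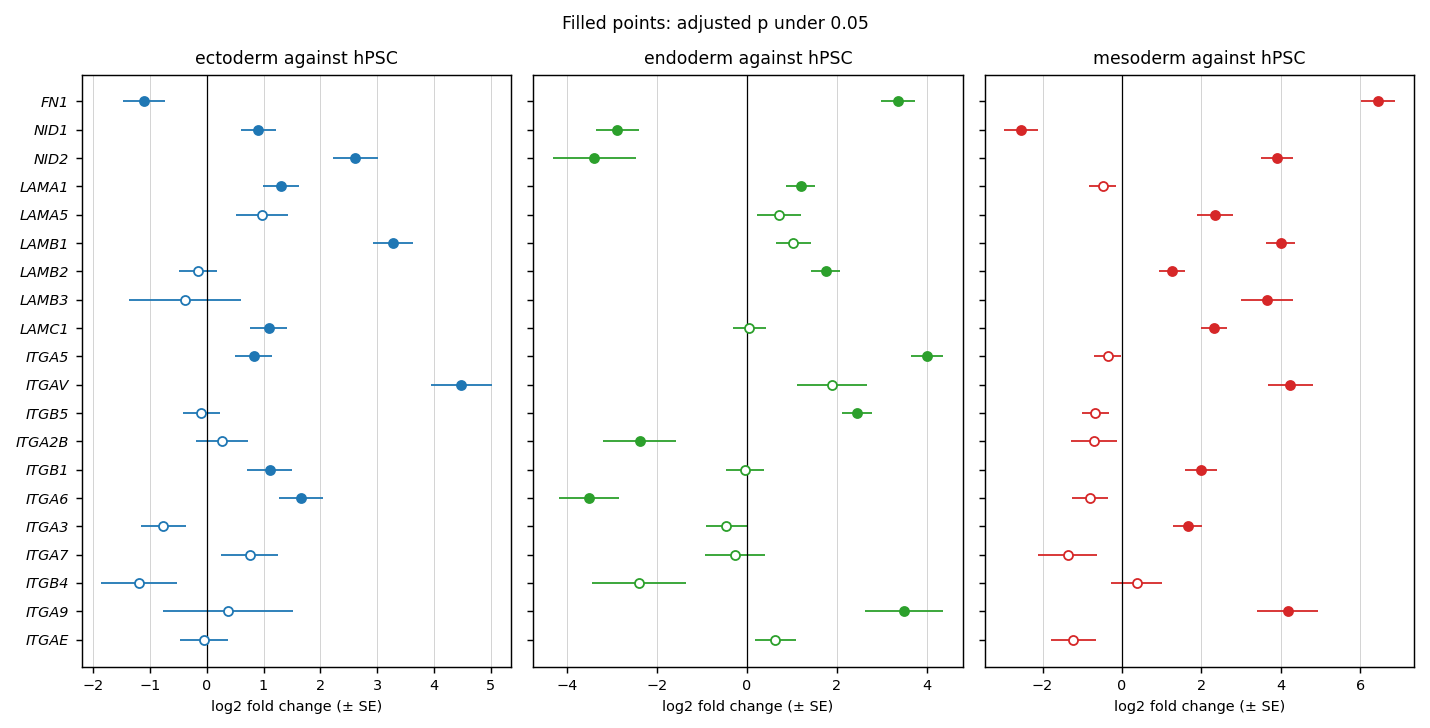
Log2 fold change (± SE, edgeR fit over all genes) of 20 genes in each layer against hPSC. Filled points have an adjusted p under 0.05. LAMB3 is left out for endoderm, where it had no reads, and values against groups of 1 to 3 reads depend on the prior count of the fit. FN1 reaches 6.45 in mesoderm, ITGA5 4.01 in endoderm and ITGAV 4.48 in ectoderm.

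Among the receptors that bind the RGD motif of fibronectin and vitronectin, ITGA5 and ITGB5 were highest in endoderm, while ITGAV rose in ectoderm and mesoderm. ITGA5, the alpha subunit of the main fibronectin receptor, had 62 and 91 reads in hPSC, 80 and 56 in mesoderm, 1077 and 1067 in endoderm and 415 and 320 in ectoderm. Its normalised CPM was 2443 ± 92.3 (SD, n = 2) in endoderm against 152 ± 55.7 in hPSC, 16.1-fold higher (log2 fold change 4.01 ± 0.36 SE, adjusted p = 2.00e-06), with no overlap between endoderm and any other group. The mesoderm level of ITGA5 was 118 ± 25.7 (log2 fold change -0.36 ± 0.35 SE, adjusted p = 0.437 against hPSC), so the group with the most FN1 reads was not the group with the most ITGA5 reads. In ectoderm ITGA5 was 1.77-fold higher (log2 fold change 0.83 ± 0.33 SE, adjusted p = 0.0494), a call that ended in 7 of 20 other settings, among them the removal of hPSC repeat 1 (0.46, adjusted p = 0.198) and of either ectoderm repeat (0.93, adjusted p = 0.0803 and 1.05, adjusted p = 0.0564). ITGB5, a beta subunit that pairs with ITGAV, had 40 and 62, 146 and 113, 244 and 242 and 37 and 36 reads in hPSC, ectoderm, endoderm and mesoderm. It was 5.47-fold higher in endoderm (log2 fold change 2.45 ± 0.33 SE, adjusted p = 6.69e-05) and did not pass in ectoderm (-0.09 ± 0.32, adjusted p = 0.835) or mesoderm (-0.67 ± 0.35, adjusted p = 0.146), but with reference transcripts alone ITGB5 was called higher in ectoderm (1.71, adjusted p = 0.0293), and in mesoderm it was called lower without hPSC repeat 1 (-1.06, adjusted p = 0.00785) and lay above hPSC, uncalled, with reference transcripts alone (1.19, adjusted p = 0.198).

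ITGAV, the partner of ITGB5 and of several other beta subunits, showed another order. It had 1 and 2 reads in hPSC, 34 and 33 in mesoderm, 4 and 6 in endoderm and 91 and 96 in ectoderm, so that both hPSC libraries were at the edge of detection. On reads pooled over repeats ectoderm was 23.4-fold (95% counting interval 7.89 to 115) above hPSC and mesoderm 19.9-fold (95% counting interval 6.52 to 98.9) above it, and both changes passed edgeR's test (adjusted p = 1.85e-05 and 4.75e-05). Endoderm stood 3.89-fold (95% counting interval 1 to 22) above hPSC and did not pass (adjusted p = 0.0844). Ectoderm and mesoderm did not differ beyond their spread (0.25 ± 0.31, adjusted p = 0.562). In endoderm, where ITGB5 rose, ITGAV thus had at most 6 reads per library. ITGA2B, known as the platelet fibrinogen receptor subunit, had 9 and 10 reads in hPSC and 0 and 3 in endoderm, 5.43-fold (95% counting interval 1.60 to 28.6) lower on pooled reads (adjusted p = 0.0382), and this call ended in 8 of 17 other settings, DESeq2's Wald test and the removal of endoderm repeat 1 among them (-2.38, adjusted p = 0.150 and -1.31, adjusted p = 0.268). The other RGD-binding subunits were too low to test. ITGB8, a subunit that with ITGAV binds latent TGF-beta, had 20 and 8 reads in ectoderm and none elsewhere, at least 3.51-fold higher than hPSC against a floor of 3 counts over the group. ITGA8 had 8 and 8 reads in mesoderm and none elsewhere, at least 4.75-fold higher than hPSC on the same floor.

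ITGB1, the beta subunit shared by most matrix receptors, had 82 and 22 reads in hPSC, 212 and 237 in mesoderm, 47 and 37 in endoderm and 312 and 269 in ectoderm. On the normalised scale the hPSC repeats lay on either side of both endoderm libraries. In mesoderm ITGB1 was 3.95-fold higher (log2 fold change 1.98 ± 0.40 SE, adjusted p = 0.00155), also without either hPSC repeat. Its rise in ectoderm (log2 fold change 1.11 ± 0.40 SE, adjusted p = 0.0300) ended without hPSC repeat 2 (0.58, adjusted p = 0.0991) or either ectoderm repeat (1.25, adjusted p = 0.0764 and 1.21, adjusted p = 0.0914), and with a trend on GC content removed (0.05, adjusted p = 0.936). Endoderm against hPSC did not pass (-0.05 ± 0.43, adjusted p = 0.954), but without hPSC repeat 1 it was higher (1.04, adjusted p = 0.0462). Endoderm therefore held its high ITGA5 at an ITGB1 level of 95.4 ± 11.9 normalised CPM, the mesoderm group at 391 ± 43.4.

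Of the laminin-binding subunits ITGA6 had the largest difference between layers. It pairs with ITGB1 or ITGB4 and is used to mark human pluripotent cells. It had 43 and 13 reads in hPSC, 17 and 18 in mesoderm, 3 and 1 in endoderm and 223 and 235 in ectoderm. ITGA6 was 3.16-fold higher in ectoderm than in hPSC (log2 fold change 1.66 ± 0.38 SE, adjusted p = 0.00254) and 11.4-fold lower in endoderm (log2 fold change -3.51 ± 0.67 SE, adjusted p = 0.00134), and both calls held in every other setting run. Ectoderm and endoderm differed by a log2 fold change of 5.17 ± 0.59 (adjusted p = 3.98e-06). Mesoderm overlapped with hPSC (-0.81 ± 0.45, adjusted p = 0.177), and without hPSC repeat 2 the difference was -1.37 (adjusted p = 0.00554). ITGA3, a second receptor of laminins with the alpha 5 chain, rose in mesoderm, from 19 and 10 reads in hPSC to 54 and 48 (log2 fold change 1.65 ± 0.35 SE, adjusted p = 0.00229). ITGA7 and ITGB4 passed in no comparison with hPSC. ITGB4, which links ITGA6 to keratin filaments, had 3 and 10 reads in hPSC and 0 and 2 in endoderm, 5.57-fold (95% counting interval 1.26 to 50.9) lower on pooled reads (adjusted p = 0.0981).

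ITGA6 is made with either of 2 cytoplasmic tails, A and B, and the A form includes an exon at chr2:172501772-172501901 on the plus strand, 130 nt long, that brings its own stop codon. It is shown because it marks the form, with the exon in capitals up to and including that stop codon and the 10 bases before it in lower case.
ITGA6 A exon: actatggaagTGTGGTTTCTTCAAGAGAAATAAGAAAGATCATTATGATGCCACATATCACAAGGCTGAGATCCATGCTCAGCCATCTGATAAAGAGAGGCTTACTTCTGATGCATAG
Reads of the A form were 6 of 56 in hPSC (10.7%, exact 95% binomial interval 4.04% to 21.9%), 43 of 458 in ectoderm (9.39%, 6.88% to 12.4%) and 8 of 35 in mesoderm (22.9%, 10.4% to 40.1%). In endoderm it was 0 of 4 (exact interval up to 60.2%). The mesoderm libraries differed, with 6 of 17 (35.3%) and 2 of 18 (11.1%). The B form thus held most reads in hPSC, ectoderm and mesoderm, the intervals overlap, and no test was made because the endoderm libraries had 3 and 1 reads. The matching choice of tails in ITGA3 could not be scored, because no transcript pair of the assembly differed by that exon.

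Several laminin chains rose in mesoderm, among them LAMA5, LAMB1, LAMB2, LAMB3 and LAMC1, while LAMA1 did not pass. LAMB1, the beta 1 chain of embryonic laminins, had 13 and 19 reads in hPSC, 292 and 289 in mesoderm, 33 and 24 in endoderm and 439 and 399 in ectoderm. It was 16-fold higher in mesoderm (log2 fold change 3.996 ± 0.36 SE, adjusted p = 9.63e-07) and 9.75-fold higher in ectoderm (log2 fold change 3.29 ± 0.35 SE, adjusted p = 7.35e-06), both in every other setting run, and did not pass in endoderm (1.04 ± 0.39, adjusted p = 0.0581). LAMC1, the gamma 1 chain found in most laminins, had 26 and 20 reads in hPSC, 134 and 122 in mesoderm, 26 and 15 in endoderm and 137 and 123 in ectoderm, and was 4.95-fold higher in mesoderm (log2 fold change 2.31 ± 0.33 SE, adjusted p = 8.42e-05) and 2.13-fold higher in ectoderm (log2 fold change 1.09 ± 0.33 SE, adjusted p = 0.0125). LAMB2, the beta 2 chain, rose in endoderm (124 and 136 reads against 35 and 54, log2 fold change 1.75 ± 0.33 SE, adjusted p = 0.00127) and in mesoderm (126 and 116 reads, log2 fold change 1.25 ± 0.33 SE, adjusted p = 0.00865). Endoderm was thus the group in which LAMB2 passed and LAMB1 did not, though LAMB1 was called higher there in 5 of 20 other settings. LAMB3, a chain of the epithelial laminin that anchors hemidesmosomes, rose in mesoderm. It had 1 and 2 reads in hPSC, 26 and 19 in mesoderm, none in endoderm and 2 and 4 in ectoderm. On pooled reads mesoderm was 13.4-fold (95% counting interval 4.29 to 67.2) above hPSC (adjusted p = 6.58e-04 by edgeR). LAMA3 had no reads in mesoderm and 4 over all 8 libraries.

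The alpha chains, which carry the main receptor-binding sites of laminin, split by layer. LAMA1, the chain of the earliest embryonic laminin, had 41 and 40 reads in hPSC, 33 and 32 in mesoderm, 98 and 63 in endoderm and 261 and 268 in ectoderm. It rose 2.47-fold in ectoderm (log2 fold change 1.30 ± 0.31 SE, adjusted p = 0.00333) and 2.30-fold in endoderm (log2 fold change 1.20 ± 0.32 SE, adjusted p = 0.0125), and did not pass in mesoderm (-0.49 ± 0.34, adjusted p = 0.287). The endoderm call ended without endoderm repeat 1 (0.97, adjusted p = 0.108). LAMA5, the chain of the laminin that pluripotent cells attach to, had 45 and 8 reads in hPSC, 157 and 137 in mesoderm, 38 and 35 in endoderm and 123 and 144 in ectoderm. It was 5.05-fold higher in mesoderm (log2 fold change 2.34 ± 0.46 SE, adjusted p = 0.00125). The LAMA5 values of hPSC rest on repeats that differ from each other: without repeat 1, with its 45 reads, LAMA5 was called higher in ectoderm (2.52, adjusted p = 1.03e-05) and endoderm (2.29, adjusted p = 3.33e-04) as well. Between layers, LAMA1 was lower in mesoderm than in ectoderm (ectoderm against mesoderm, 1.79 ± 0.32, adjusted p = 5.76e-04) and LAMA5 was higher (ectoderm against mesoderm, -1.36 ± 0.41, adjusted p = 0.0190).

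The nidogens, which tie laminin to type IV collagen, parted in mesoderm. NID1 had 37 and 41 reads in hPSC, 10 and 5 in mesoderm, 3 and 6 in endoderm and 201 and 189 in ectoderm. It was 7.35-fold lower in endoderm (log2 fold change -2.88 ± 0.47 SE, adjusted p = 3.68e-04) and 5.82-fold lower in mesoderm (log2 fold change -2.54 ± 0.42 SE, adjusted p = 3.23e-04). In ectoderm NID1 was 1.88-fold higher (log2 fold change 0.91 ± 0.31 SE, adjusted p = 0.0248), a call that DESeq2's Wald test did not make (0.96, adjusted p = 0.111) and that ended without hPSC repeat 1 (0.71, adjusted p = 0.0513) or ectoderm repeat 2 (0.97, adjusted p = 0.0957). NID2 had 9 and 5 reads in hPSC, 125 and 112 in mesoderm, 1 and 0 in endoderm and 121 and 108 in ectoderm. NID2 was 14.9-fold higher in mesoderm (log2 fold change 3.90 ± 0.39 SE, adjusted p = 2.82e-06) and 6.13-fold higher in ectoderm (log2 fold change 2.61 ± 0.40 SE, adjusted p = 1.25e-04). In endoderm, with 1 read in all, it was 12-fold (95% counting interval 1.83 to 507) lower than hPSC (adjusted p = 0.0130), a call that ended without hPSC repeat 1 (-3.04, adjusted p = 0.0586) and endoderm repeat 2 (-2.46, adjusted p = 0.125). In endoderm both nidogens were thus below hPSC, while in mesoderm NID1 was below it and NID2 above it, with no overlap with hPSC. Vitronectin, a serum and matrix ligand of ITGAV, had 2 and 6 reads in endoderm and 0 to 2 in any other library, too few for the test.

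ITGA9, a receptor for tenascin and for the EDA domain of fibronectin, had 0 and 2 reads in hPSC, 25 and 19 in mesoderm, 13 and 8 in endoderm and 2 and 5 in ectoderm. On pooled reads it was 19.6-fold (95% counting interval 5.11 to 167) above hPSC in mesoderm (adjusted p = 7.20e-04) and 12.2-fold (95% counting interval 2.99 to 108) above it in endoderm (adjusted p = 0.00766), the latter call ending without endoderm repeat 1 (3.22, adjusted p = 0.0769). ITGAE, the subunit that binds E-cadherin, passed in no layer, with 4 to 28 reads per library. The remaining genes had 2 to 35 reads over all 8 libraries and were not tested. They include the 4 collagen-binding alpha subunits. ITGA2 had 1 and 3 reads in hPSC, 5 and 6 in mesoderm, none in endoderm and 7 and 13 in ectoderm, and ITGA1 had 9 and 5 in ectoderm. LAMC3 had 9 and 9 reads in hPSC and none in ectoderm, at least 16-fold lower against the floor of 3 counts, and 3 and 7 in endoderm. LAMA2, the muscle and nerve laminin chain, had 9 and 14 reads in ectoderm, 1 and 3 in hPSC and none in endoderm and mesoderm. The leukocyte subunits ITGAL, ITGAM, ITGB2 and ITGB7 had at most 5 reads in any library.

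The layers were also compared with each other. Of the 21 genes, 8 were higher and 5 lower in ectoderm than in endoderm (63.1% of all genes called, 33.1% higher and 29.9% lower), 5 were higher and 9 lower in ectoderm than in mesoderm (35.5%, 18.1% and 17.3%), and 4 were higher and 12 lower in endoderm than in mesoderm (47.1%, 23.2% and 23.9%). The 4 genes higher in endoderm than in mesoderm were ITGA5 (4.37 ± 0.36, adjusted p = 5.17e-07), ITGB5 (3.12 ± 0.34, adjusted p = 5.89e-06), LAMA1 (1.69 ± 0.33, adjusted p = 8.19e-04) and ITGAE (1.86 ± 0.53, adjusted p = 0.00944), named after their values were seen. Those lower in endoderm included NID2 (-7.30 ± 0.60, adjusted p = 4.61e-07), LAMB1 (-2.96 ± 0.34, adjusted p = 8.19e-06) and LAMC1 (-2.25 ± 0.33, adjusted p = 8.91e-05). LAMB3 was at least 11.5-fold higher in mesoderm than in endoderm on the floor of 3 counts. Ectoderm stood above mesoderm in NID1 (3.45 ± 0.39, adjusted p = 9.66e-06) and ITGA6 (2.47 ± 0.41, adjusted p = 2.91e-04), and below it in FN1 (-7.55 ± 0.44, adjusted p = 3.70e-08).

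Transcript length moved with the groups and bears on these long genes. The mean length of the transcript behind a read was 3298 and 3114 nt in hPSC, 3765 and 3840 nt in mesoderm, 3073 and 2975 nt in endoderm and 4406 and 4650 nt in ectoderm. Of all tested genes with a mean transcript of 6000 nt or more, 47.2% were called higher and 5.77% lower in ectoderm, against 2.61% and 61.3% of genes under 2000 nt. In mesoderm 23.7% of the long genes were called higher and 8.65% lower, and in endoderm 8.48% and 10.9%. With the trend on length removed from the fit, the ectoderm rise was no longer called for 5 genes: LAMA1 went to 0.17 (adjusted p = 0.698), LAMC1 to 0.11 (adjusted p = 0.821), NID1 to 0.18 (adjusted p = 0.681), ITGA5 to 0.38 (adjusted p = 0.406) and ITGB1 to 0.90 (adjusted p = 0.0675). LAMB1 (2.55, adjusted p = 6.81e-05), ITGAV (3.66, adjusted p = 1.49e-04), NID2 (2.06, adjusted p = 0.00101) and ITGA6 (0.98, adjusted p = 0.0450) were still called higher, and FN1 was lower by more (-2.15, adjusted p = 4.47e-04). ITGA3 (-1.28, adjusted p = 0.0171) was then called lower in ectoderm. In mesoderm the call of LAMB2 ended (0.89, adjusted p = 0.0582), LAMA1 was called lower (-1.02, adjusted p = 0.0310), and FN1 stood at 5.94 (adjusted p = 3.23e-08). In endoderm LAMB1 was called higher (1.22, adjusted p = 0.0298).

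**Figure D5:**
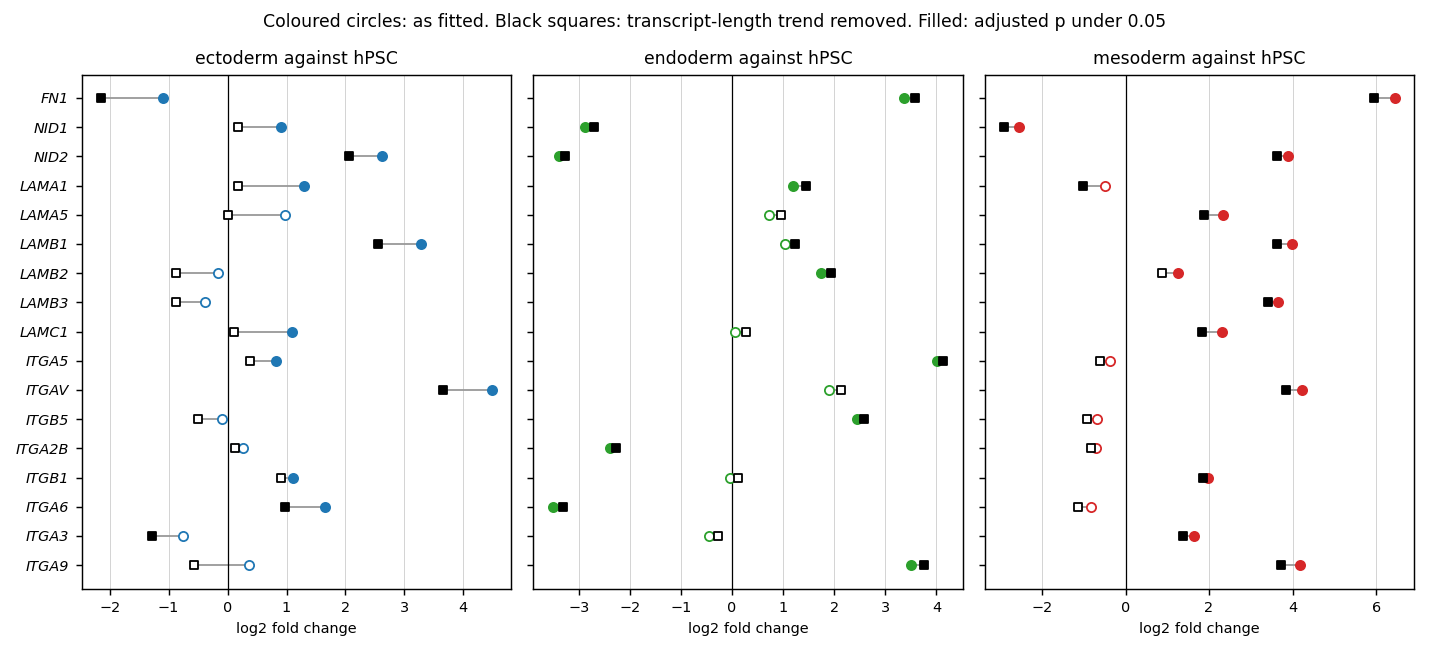
Log2 fold change of 17 genes called in at least 1 layer, as fitted (coloured circles) and with the trend on transcript length removed (black squares). Filled symbols have an adjusted p under 0.05. LAMB3 is left out for endoderm. Squares lie left of the circles in ectoderm, where LAMA1 moves from 1.30 to 0.17, and close to them in endoderm.

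At the level of single transcripts, 50 transcripts from 17 of the genes were tested. In ectoderm 20 were higher and 1 lower than in hPSC (45.9% of all 12440 tested transcripts called), in endoderm 17 and 3 (26.8%) and in mesoderm 32 and 2 (32.8%). The choice among transcripts of a gene was tested for 11 of them with edgeR's diffSpliceDGE, and none was called in any layer, beside 2.66%, 2.13% and 2.97% of all 2629 genes tested in ectoderm, endoderm and mesoderm. At an unadjusted p under 0.05 there were 0, 1 and 1, which was ITGB5 both times (adjusted p = 0.242 in endoderm and 0.376 in mesoderm). LAMB2 kept its 2 main transcripts at 56.2% and 43.8% of reads in hPSC, 69.0% and 31.0% in mesoderm, 62.7% and 37.3% in endoderm and 55.1% and 44.9% in ectoderm. The main LAMA1 transcript (ENST00000389658.4) held 80.3% of its reads in hPSC, 83.1% in mesoderm, 75.8% in endoderm and 83.2% in ectoderm.

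Genes that work with the set were counted from lists. Values of these genes are as fitted, with the trend on transcript length left in. Of 26 adaptors and kinases of focal adhesions, the sites where integrins meet actin, 21 were tested: 2 rose and 8 fell in ectoderm, 5 rose and 3 fell in endoderm, and 10 rose and 1 fell in mesoderm, with median log2 fold changes of -0.71, 0.00 and 1.00. Over all tested genes 48.6% were called in ectoderm, 27.1% in endoderm and 35.2% in mesoderm. FERMT2, which activates integrins through the beta tail, rose in ectoderm (18 and 10 reads in hPSC, 210 and 174 in ectoderm, log2 fold change 2.37 ± 0.36 SE, adjusted p = 1.24e-04). ZYX (-2.16 ± 0.48, adjusted p = 0.00205 by edgeR) and ILK, the integrin-linked kinase (-1.94 ± 0.39, adjusted p = 0.00104 by edgeR), were lower there. Repeats differed for both: ZYX had 197 and 40 reads in hPSC, and ILK had 204 and 83 in ectoderm. In mesoderm the adaptors PARVA (2.24 ± 0.42, adjusted p = 8.72e-04) and BCAR1 (1.97 ± 0.41, adjusted p = 0.00180) rose, and the kinase SRC rose in mesoderm (2.63 ± 0.53, adjusted p = 0.00141) and endoderm (2.22 ± 0.56, adjusted p = 0.00802), where TNS2 and TGFB1I1 rose as well (3.03 and 1.72). SRC had 13 and 1 reads in the hPSC libraries, and BCAR1 had 61 and 19. TGFB1I1 passed narrowly in endoderm (adjusted p = 0.0456 by edgeR), with 3 and 5 reads in hPSC and 10 and 13 in endoderm.

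Of 18 basement membrane genes and other laminin receptors, 15 were tested: 6 rose and 2 fell in mesoderm, 9 and 2 in endoderm, and 8 and 3 in ectoderm, with medians of 1.02, 1.47 and 0.80, beside 35.2%, 27.1% and 48.6% of all genes called. Type IV collagen chains led in ectoderm, where COL4A6 had 138 and 114 reads against 6 and 4 in hPSC (3.22 ± 0.43, adjusted p = 4.15e-05), and COL4A5 (3.20) and COL4A1 (2.19) rose too. COL4A6 (3.45) and COL4A1 (3.06) also rose in endoderm, together with FREM1, a basement membrane protein of the Fraser complex, which went from 1 and 1 to 33 and 31 reads. Its relative FREM2 rose in mesoderm (7 and 5 reads in hPSC, 111 and 110 in mesoderm, 4.02 ± 0.39, adjusted p = 2.10e-06) and had 0 and 1 reads in endoderm. BCAM, a receptor for the laminin alpha 5 chain, rose in mesoderm (2.29), as did COL4A5 (2.28). Of 20 other matrix ligands of integrins, 15 were tested: 7 rose and 2 fell in mesoderm, 5 and 2 in endoderm, and 4 and 3 in ectoderm, with medians of 1.62, 0.00 and 0.22, beside the same 35.2%, 27.1% and 48.6% of all genes called. Tenascin C (TNC), a ligand of ITGA9, rose in all 3 layers, from 11 and 13 reads in hPSC to 553 and 415 in mesoderm (5.15), 251 and 198 in endoderm (4.43) and 343 and 346 in ectoderm (3.43). FBN2 rose in ectoderm (4.54) and endoderm (4.15), and so did VWF (4.43 and 4.86), which had 1 and 1 reads in hPSC. In mesoderm TGFBI had 386 and 504 reads against 4 and 5 in hPSC (6.43 ± 0.42, adjusted p = 6.94e-08), and NPNT, the ligand of ITGA8, had 31 and 44 reads against none in hPSC.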

How the data were processed

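PacBio long reads of 8 H1 libraries fall into 4 groups of 2 by the cell type that their labels name. The authors deposited whole read counts per assembled transcript with no normalization, for a combined assembly and for each group. The deposited endoderm columns were listed under the unit of expected counts, only because their name reads like a position. They hold whole counts, and nothing was rounded. The deposited assemblies give exon coordinates and class codes and no measured score or other value used here. The submitters' processing notes name minimap2, StringTie and GRCh38 (hg38). Versions, the counting of reads shared by similar copies, and strand use are not given in the sources used here, so counts of close paralogs are uncertain.

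Each gene's count adds up its named transcripts. These were tested with edgeR 4.0.16 (R 4.3.3): TMM factors (0.726 to 1.27), filterByExpr at a minimum count of 10, a quasi-likelihood fit over all 8 libraries, and Benjamini-Hochberg adjustment over 10847 genes at 0.05. SE is the log2 fold change divided by the square root of F. Where a group had 1 to 3 reads, the ratio of pooled reads has a 95% exact conditional interval, and at 0 the fold is a bound against 3 counts over the group. FN1 shares used exact permutation tests (scipy 1.17.1), with at least 10 spanning reads per library. On simulated counts with 200 of 10847 genes changed 4-fold, the test recovered 76.5% in ectoderm, 66% in endoderm and 69% in mesoderm, and 2.22% to 6.13% of its calls were false. With 200 of 12440 transcripts changed it recovered 62%, 47.5% and 44% in that order, and 3.06% to 9.28% of calls were false. Far fewer genes changed there than the 2943 to 5275 called in the real comparisons with hPSC, so these rates need not hold for them. Repeats differed by more than sampling noise (chi-square per degree of freedom 1.62 to 7.16, r of log2 CPM 0.863 to 0.965). The values of 1 tested gene are not reported here, though counts and medians include it. The genes and lists were chosen with earlier results of these data known. Named are genes of the set called in at least 1 layer, at most 3 called genes per partner list and layer with 10 CPM or more in each library of the group where they are higher, and transcripts with at least 10% of a gene's reads. Alternatives were DESeq2 1.42.0 and its size factors, library totals, other filters, only the groups compared, a block on the repeat number, trends on length and GC content removed, other transcript sets, and leaving out each library.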

Additional observations from a re-analysis of the deposited data

How the results depend on the processing

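Of the 33 changes called between a layer and hPSC, 21 kept their direction and their call in every one of up to 20 other settings, among them FN1 in endoderm and mesoderm, ITGA5 and ITGB5 in endoderm, and LAMB1, ITGAV and NID2 in ectoderm and mesoderm. The other 12 lost the call in at least 1 setting and kept their direction. Over all 6 comparisons, those between layers included, 48 of 73 calls of these genes held in every setting. The other 25 lost the call or changed sign in at least 1. The number of genes called in ectoderm was 10, and from 6 to 11 when 1 library was left out. The number of transcripts called there was 21, and from 12 to 29 with 1 library left out. Values that changed sign with a call on either side of the change were ITGB1 in endoderm against hPSC (1.04, adjusted p = 0.0462 without hPSC repeat 1, and from -0.64 to 1.04 over all libraries left out in turn), ITGB5 in ectoderm against hPSC (1.71, adjusted p = 0.0293 with reference transcripts only), ITGB1 in ectoderm against endoderm (-0.40, adjusted p = 0.399 with the GC trend removed), and LAMA1 and LAMC1 in ectoderm against endoderm (-1.27, adjusted p = 0.00193 and -0.17, adjusted p = 0.695 with the length trend removed). Other values changed sign without a call in either setting, ITGB5 in mesoderm and ITGA6 in mesoderm against hPSC among them. Why the repeats of hPSC differ in ITGA6, ITGB1 and LAMA5 was not tested.

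The range of group means was 6.78 percentage points for EDB, and from 4.28 to 13.5 with 1 library left out. It was 3.01 for EDA, and from 2.57 to 4.92. For the whole variable region it was 9.37, from 3.95 to 14.8 with 1 library left out, and 8.94 in the separate assemblies, where the adjusted exact permutation p was 0.0286. Without hPSC repeat 1, which leaves hPSC with 1 library assumed to vary like the other groups, all 3 events passed (adjusted exact permutation p = 0.0476, 0.0476 and 0.0286). With transcripts held by at least 2 assemblies no FN1 read lacked EDB or EDA, since those transcripts all include them.

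The repeat numbers did not pair the libraries: the correlation of their deviations between groups was -0.03 to 0.13. With the repeat number as a block, 9, 10 and 13 genes were called in ectoderm, endoderm and mesoderm, against 10, 10 and 13 without it, and ITGA5 in ectoderm was the call it ended (0.83, adjusted p = 0.0664). With the block and the length trend removed together, LAMA1 and LAMC1 in ectoderm against endoderm were -1.26 (adjusted p = 0.00295) and -0.16 (adjusted p = 0.736). The planned test of the A form of ITGA3 and its alternatives were not run, because the assembly holds no such pair. Depth limits the FN1 shares in hPSC and ectoderm to 49 to 80 reads per library.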

Other observations

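ITGB5 was the gene of the set with the lowest p for a change of transcript choice, and its transcripts are given here as values. A transcript that contains a reference transcript and extends it, held by 2 group assemblies, had 66 and 53 reads in endoderm, 119 of 486 ITGB5 reads (24.5%), and 3 and 2 reads in hPSC, 5 of 102 (4.90%). In ectoderm it had 4 and 4 reads (3.09%) and in mesoderm 1 and 0 (1.37%). The reference transcript ENST00000296181.9 held 6.86% of ITGB5 reads in hPSC, 23.3% in mesoderm, 6.58% in endoderm and 21.6% in ectoderm. The transcript with the most ITGB5 reads in hPSC had 23 of 102 there, 5 of 73 in mesoderm, 51 of 486 in endoderm and 39 of 259 in ectoderm. It was called lower in mesoderm than in hPSC (log2 fold change -2.21 ± 0.77 SE, adjusted p = 0.0378 by edgeR). Others held 30 and 28 of the 259 ITGB5 reads in ectoderm. ITGB1 was led by ENST00000302278.8 with 46.2% of reads in hPSC, 66.4% in mesoderm, 58.3% in endoderm and 47.0% in ectoderm, and LAMB1 by ENST00000222399.11 with 43.8%, 44.6%, 45.6% and 61.0% in that order. No change of transcript choice was called for either gene. A NID2 transcript that matched no reference transcript was read 16 and 11 times in ectoderm and 19 and 20 times in mesoderm (11.8% and 16.5% of NID2 reads), and not in hPSC or endoderm, which had 14 reads and 1 read of the gene.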
